A study of Ursus arctos with 5 samples.

Results

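The mitochondrial ribosomal proteins were followed at the mRNA level in gastrocnemius muscle of hibernating and active grizzly bears (Ursus arctos). Members were all transcripts of the deposited bear table whose assigned gene symbol starts with MRPL or MRPS followed by a digit. The rule took 52 of 26614 transcripts, and these belonged to 26 of the 4873 genes that carry a symbol in the table. Muscle biopsies of 2 captive bears, named Tia and Star, were taken in October, when the animals were active, and in February, when they were hibernating. Each bear gave 1 single-end poly(A) RNA library per state, 4 libraries in all, so there was no replicate within a bear. Both states shared the tissue, the research facility and anesthesia with tiletamine and zolazepam followed by isoflurane, with a lower dose of the injected agents in hibernation. Hibernating bears were not fed and lived in unheated dens, so that hibernation, fasting, season and dose cannot be told apart. The labels describe the bears as adult with an age of 10 years. The study, however, states that the biopsies used for RNA sequencing came from its adult and its subadult. Which of the 2 bears was the subadult is not given, so bear and age class cannot be told apart. The labels join both bears in 1 sample per state, and the bears were told apart by the names of the table's columns.

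Mitochondria carry their own ribosome, which translates the few respiratory chain and ATP synthase subunits encoded in mitochondrial DNA. Its RNA is made inside the organelle, but all of its proteins are encoded in the nucleus, translated in the cytosol and imported. MRPL proteins belong to the large subunit, which forms the peptide bond, and MRPS proteins to the small subunit, which binds the mRNA. Some have a counterpart in the bacterial ribosome and others were added during the evolution of mitochondria. MRPS30 has a small-subunit name but sits in the large subunit, and it was counted there. Skeletal muscle depends on this machinery for oxidative phosphorylation, more so in slow than in fast fibres.

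Levels are RPKM values (reads per kilobase of transcript, scaled to the aligned reads of the library). Division by length allows only a rough comparison between genes, because a gene's level also depends on which of its assembled transcripts is read. The mean level of MRPL51, for example, was 48.2 RPKM by its most-read transcript and 74.6 RPKM by a shorter one. The 4 libraries held between 44.7 and 54.2 M aligned reads, as recovered from the steps between low RPKM values. The lowest value in the table was 1.000 RPKM, so a transcript had to reach about that level in all 4 libraries to be listed. Of the 78 MRPL and MRPS genes in the bear RefSeq annotation, 26 were measured, 16 MRPL and 10 MRPS genes, and the others were not analysed here. In a bulk biopsy, fewer cells of a type and less RNA per cell cannot be told apart. Of 9 skeletal muscle markers only TNNC2 and TTN were named in the table, and none of 6 fat cell markers was. TNNC2 lay between 1198 and 2347 RPKM in the 4 libraries. TTN, read from its most-read assembled transcript of 2600 bases, was at 794 RPKM in active and 700 RPKM in hibernating Tia. In Star this transcript was at 598 and 155 RPKM, so that hibernating Star stood apart for it (score 0.801). Any other TTN transcripts were not examined here, so this value need not hold for TTN as a whole.

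No mitochondrial ribosomal protein transcript passed a test between hibernation and activity. Unless stated otherwise, each gene was read from its transcript with the most reads, and its change was the log2 of hibernating over active RPKM, each with 0.5 added. By a score rewritten from the description of the study's method, which need not match the values of the original package, 0 of 52 transcripts reached the threshold of 0.8, beside 3.70% of all transcripts, and the highest member score was 0.666. With limma, 0 of 52 had an adjusted p under 0.05, and 0% of all transcripts did. At an unadjusted p under 0.05 the count was also 0 of 52, beside 8.41% of all transcripts. The lowest limma adjusted p of a member transcript was 0.620. The mean change over both bears ran from -0.31 for MRPS11 to 0.46 for MRPL50 on the log2 scale, and no member gene differed 2-fold in either bear. The median size of the mean change was 0.16 over the 26 genes and 0.26 over all named genes.

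**Figure D1:**
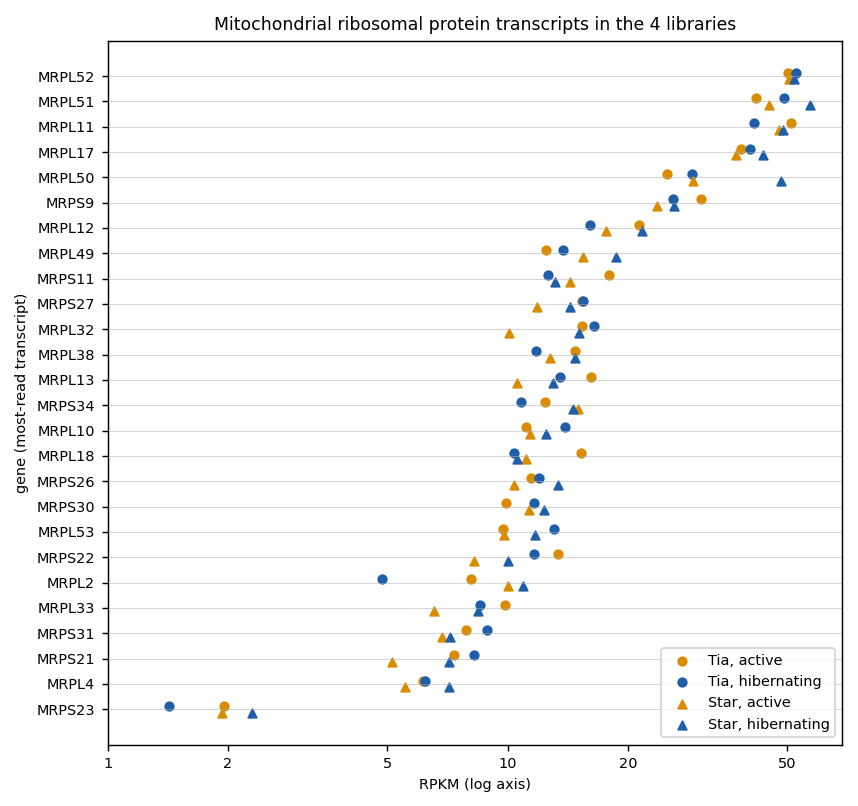
RPKM (log axis) of the 26 mitochondrial ribosomal protein genes in the 4 libraries, 1 point per bear and state, by the most-read transcript. MRPL52, MRPL51 and MRPL11 lie at the top, MRPS23 lies alone under 5 RPKM, and the active and hibernating points of most genes lie close together beside the 27.0-fold range between genes.

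The family covered a 27.0-fold range of mean levels by the most-read transcripts. MRPL52, MRPL51 and MRPL11 averaged 40 RPKM or more, 3 genes lay between 20 and 40 RPKM, 19 lay between 5 and 20 RPKM, and MRPS23 alone lay under 5 RPKM. The mean over the 4 libraries was 51.4 RPKM for MRPL52, 48.2 for MRPL51 and 47.2 for MRPL11. These 3 differed by less than the spread between libraries of MRPL51, whose active mean was 43.4 ± 2.17 RPKM and whose hibernating mean was 53.1 ± 5.77 RPKM (SD, n = 2 bears each). The summed level of the 26 genes was 475 RPKM in active and 459 RPKM in hibernating Tia, and 439 RPKM in active and 515 RPKM in hibernating Star. The sums thus differed 0.968-fold in Tia and 1.17-fold in Star, in opposite directions. Over all named genes the sums also went in opposite directions, 0.953-fold in Tia and 1.06-fold in Star. After scaling of the libraries by the median ratio, the member sums differed 0.894-fold in Tia and 1.01-fold in Star.

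Both bears had higher levels in hibernation for 14 of the 26 genes, or 53.8%, beside 48.7% of all named genes. Levels were lower in both for 3 genes, or 11.5%, beside 16.1% of all named genes. These 3 were MRPS11, MRPL18 and MRPS34. The remaining 9 genes had opposite directions, and all 9 were lower in hibernating Tia and higher in hibernating Star. Among all named genes, 1138 were lower in Tia and higher in Star and 573 the other way. The split depended on the scaling of the libraries. After scaling by the median ratio to the other libraries, 5 member genes were higher and 8 lower in both bears, and after scaling by the upper quartile 3 were higher and 9 lower.

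The states did not overlap for 8 of 26 genes with both hibernating libraries on top, beside 1745 of all 4873 named genes. For 2 of 26 genes both hibernating libraries were below, beside 395 of 4873. Over transcripts, 15 of 52 lay above, beside 33.6% of all transcripts, and 3 of 52 lay below, beside 8.40%. With 2 libraries a state, the smallest two-sided exact permutation p is 0.333, so the separation was counted and not tested gene by gene.

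MRPL10, MRPL11 and MRPL12 form the stalk of the large subunit, the flexible arm that contacts the translation factors, and all 3 were measured. MRPL10 was at 11.1 RPKM in active and 13.9 RPKM in hibernating Tia, and at 11.3 and 12.5 RPKM in Star. Its hibernating values were above both active ones, and the mean log2 change was 0.22 (limma SE 0.21, adjusted p = 0.752, higher in 2 of 2 bears). MRPL11 was at 51.0 RPKM in active and 41.3 RPKM in hibernating Tia, and at 47.7 and 48.8 RPKM in Star. Its states overlapped, with a lower level in Tia and nearly the same level in Star (mean log2 change -0.13). MRPL12 was at 21.3 RPKM in active and 16.0 RPKM in hibernating Tia, and at 17.6 and 21.7 RPKM in Star. The log2 change was -0.40 in Tia and 0.29 in Star, so that the mean was -0.05.

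The central protuberance lies at the top of the large subunit, where it faces the small one, and 2 of 7 listed genes were measured. MRPL18 was at 15.2 RPKM in active and 10.4 RPKM in hibernating Tia, and at 11.1 and 10.6 RPKM in Star. Both hibernating values were below both active ones, although the difference in Star was only -0.07 on the log2 scale against -0.53 in Tia. The mean change of MRPL18 was -0.30 (limma SE 0.24, adjusted p = 0.723). MRPL38, which has no bacterial counterpart, was at 14.8 RPKM in active and 11.8 RPKM in hibernating Tia, and at 12.8 and 14.7 RPKM in Star, with overlapping states. MRPL17 was the 1 measured gene of 6 listed around the polypeptide exit, where the new chain leaves the ribosome. It was at 38.3 RPKM in active and 40.3 RPKM in hibernating Tia, and at 37.3 and 43.5 RPKM in Star. All its values lay within a narrow band, with hibernating above active in both bears (log2 0.07 and 0.22).

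MRPL2, whose bacterial counterpart lies near the peptidyl transferase centre, was at 8.12 RPKM in active and 4.86 RPKM in hibernating Tia, and at 10.0 and 11.0 RPKM in Star. Hibernating Tia stood below the other 3 libraries. This gave the lowest fold of any member gene in 1 bear, 0.598 in Tia, beside 1.10 in Star, and the largest limma SE, 0.39. The most-read MRPL2 transcript was 13925 bases long, against 2885 bases for the next longest in the family and a family median of 1152.5 bases. Where along it the reads fell is not given, so these values need not represent MRPL2 alone.

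MRPL4, MRPL13, MRPL32 and MRPL33 also have bacterial counterparts. MRPL32, which is cut by the m-AAA protease before it joins the subunit, was at 15.3 RPKM in active and 16.5 RPKM in hibernating Tia, and at 10.1 and 15.1 RPKM in Star. Active Star stood apart from the other 3 libraries, and the log2 changes were 0.10 in Tia and 0.56 in Star. MRPL33 was at 9.88 RPKM in active and 8.54 RPKM in hibernating Tia, and at 6.54 and 8.44 RPKM in Star. The 2 hibernating values of MRPL33 were close together and lay between the active ones. MRPL13 had the same arrangement, with 16.1 and 10.6 RPKM in active and 13.5 and 13.0 RPKM in hibernating Tia and Star. MRPL4 was at 6.13 and 5.54 RPKM in active and 6.21 and 7.13 RPKM in hibernating Tia and Star.

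The mitochondria-specific proteins of the large subunit held the gene with the largest positive mean change, MRPL50. MRPL50 was at 25.1 RPKM in active and 28.9 RPKM in hibernating Tia, and at 29.1 and 48.3 RPKM in Star. Hibernating Star stood apart, while hibernating Tia was just below active Star, so the states overlapped. Its mean was 27.1 ± 2.88 RPKM in activity and 38.6 ± 13.7 RPKM in hibernation (SD, n = 2 bears each). The mean log2 change of 0.46 had a limma SE of 0.30 and an adjusted p of 0.675, with higher values in 2 of 2 bears, and its score of 0.666 was the highest in the family.

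MRPL51 was at 41.9 RPKM in active and 49.0 RPKM in hibernating Tia, and at 44.9 and 57.2 RPKM in Star. Both hibernating values lay above both active ones (mean log2 change 0.28, limma SE 0.21, adjusted p = 0.705). MRPL53 was at 9.72 RPKM in active and 13.1 RPKM in hibernating Tia, and at 9.77 and 11.7 RPKM in Star. Its active values were nearly equal, and both hibernating ones were above them (mean log2 change 0.33, limma SE 0.21, adjusted p = 0.677). MRPL53 had the highest fold of any member gene in Tia, 1.35.

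MRPL52, the gene with the highest mean level by its most-read transcript, was at 50.2 RPKM in active and 52.6 RPKM in hibernating Tia, and at 50.7 and 52.0 RPKM in Star. The 4 libraries differed by little, with a mean of 50.4 ± 0.373 RPKM in activity and 52.3 ± 0.410 RPKM in hibernation (SD, n = 2 bears each). MRPL49 was at 12.5 RPKM in active and 13.8 RPKM in hibernating Tia, and at 15.5 and 18.7 RPKM in Star. It was higher in hibernation within each bear, but hibernating Tia was below active Star. MRPS30 was at 9.93 RPKM in active and 11.6 RPKM in hibernating Tia, and at 11.3 and 12.3 RPKM in Star, and its states did not overlap.

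In the small subunit, MRPS9, MRPS11 and MRPS21 have bacterial counterparts. MRPS11 was at 17.9 RPKM in active and 12.7 RPKM in hibernating Tia, and at 14.4 and 13.1 RPKM in Star. Both hibernating values were below both active ones. Among the most-read transcripts of the family, MRPS11 had the most negative mean log2 change, -0.31 (limma SE 0.22, adjusted p = 0.703, lower in 2 of 2 bears). MRPS9 was at 30.4 RPKM in active and 26.0 RPKM in hibernating Tia, and at 23.7 and 26.0 RPKM in Star. The MRPS9 hibernating values were equal at this rounding and lay between the active ones. MRPS21 was at 7.36 RPKM in active and 8.25 RPKM in hibernating Tia, and at 5.15 and 7.15 RPKM in Star. It was higher in hibernation within each bear, with overlapping states (mean log2 change 0.30, limma SE 0.27, adjusted p = 0.740).

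The measured mitochondria-specific proteins of the small subunit were MRPS22, MRPS23, MRPS26, MRPS27, MRPS31 and MRPS34. MRPS34, in which mutations cause a combined respiratory chain deficiency in people, was at 12.4 RPKM in active and 10.8 RPKM in hibernating Tia, and at 15.0 and 14.6 RPKM in Star. It was lower in hibernation within each bear by little, at -0.19 and -0.04 on the log2 scale, and its states overlapped. MRPS23, the gene with the lowest mean level by its most-read transcript, was at 1.96 RPKM in active and 1.43 RPKM in hibernating Tia, and at 1.93 and 2.29 RPKM in Star. The active values of MRPS23 were nearly equal, and the hibernating ones lay on either side of them. MRPS26 was at 11.5 and 10.4 RPKM in active and 11.99 and 13.4 RPKM in hibernating Tia and Star, without overlap. MRPS27, a pentatricopeptide repeat protein that binds RNA, was at 15.4 RPKM in both states of Tia and at 11.9 and 14.4 RPKM in Star.

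By subunit, the median log2 change of the 17 large-subunit genes was 0.07 in Tia and 0.25 in Star, and that of the 9 small-subunit genes was -0.19 in Tia and 0.20 in Star. Over all named genes the medians were 0.13 in Tia and 0.17 in Star. By origin, the 13 genes with a bacterial counterpart had medians of -0.22 in Tia and 0.22 in Star, and 5 were higher and 2 lower in both bears. The 13 mitochondria-specific genes had medians of 0.07 in Tia and 0.25 in Star, and 9 were higher and 1 lower in both bears. The difference between the origins in Tia was not tested, because the genes of 1 library are not replicates.

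**Figure D2:**
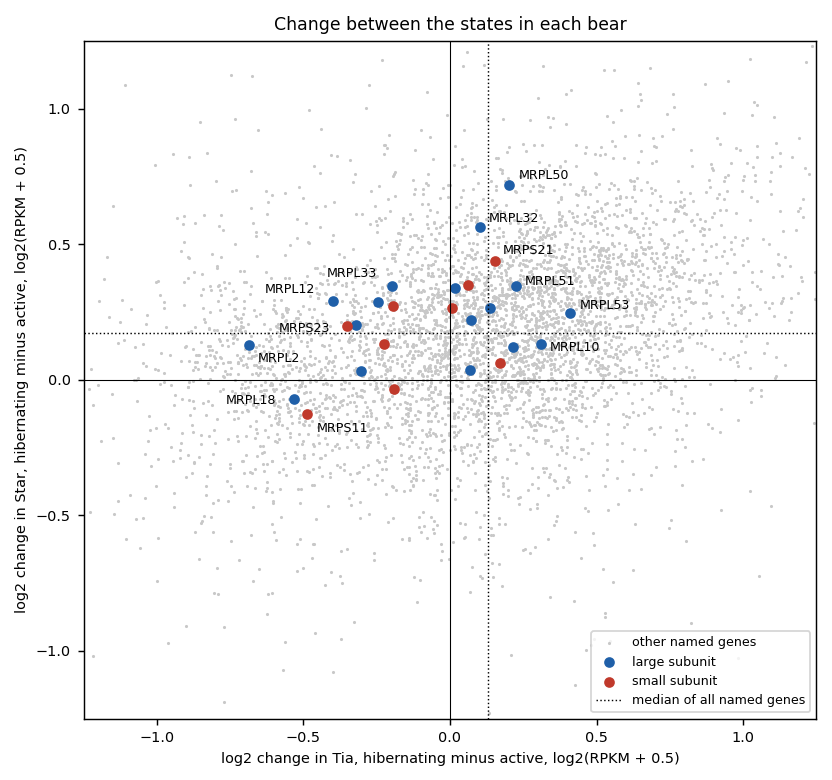
Log2 change (hibernating over active) of each gene in Tia on the horizontal axis and in Star on the vertical axis, for the 26 mitochondrial ribosomal protein genes over the 4639 named genes inside the axis limit of 1.25 (234 lie outside). All member genes with opposite directions lie in the quadrant lower in Tia and higher in Star, and the 3 lower in both lie close to 0 in Star.

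In Tia 14 member genes were higher and 12 lower in hibernation, with a median log2 change of 0.01 and folds from 0.598 to 1.35. In Star 23 were higher and 3 lower, with a median of 0.23 and folds from 0.914 to 1.66. The median absolute difference between the bears' log2 changes was 0.33 over the member genes and 0.32 over all named genes, and it was above 0.5 for 7 member genes. Tia was above Star for 17 of 26 genes in activity and for 10 of 26 in hibernation. Of all 4873 named genes, 2948 were higher in hibernation in Tia and 3514 in Star. Among these 4873, Tia was above Star for 2617 in activity and for 2451 in hibernation. With 1 library per bear and state, whether the bears differ was not tested.

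The median member transcript had between 404 and 571 reads in a library and the least read one had between 28.0 and 64.9. Counting error alone gave a standard error of 0.02 to 0.19 on the log2 change of a gene, against 0.20 to 0.39 from limma. The limma SE also draws on a prior variance from all transcripts, so it can exceed the spread between the bears for a gene. Of the 26 genes, 8 had a mean change larger than their limma SE, and none had a change larger than 2 SE.

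**Figure D3:**
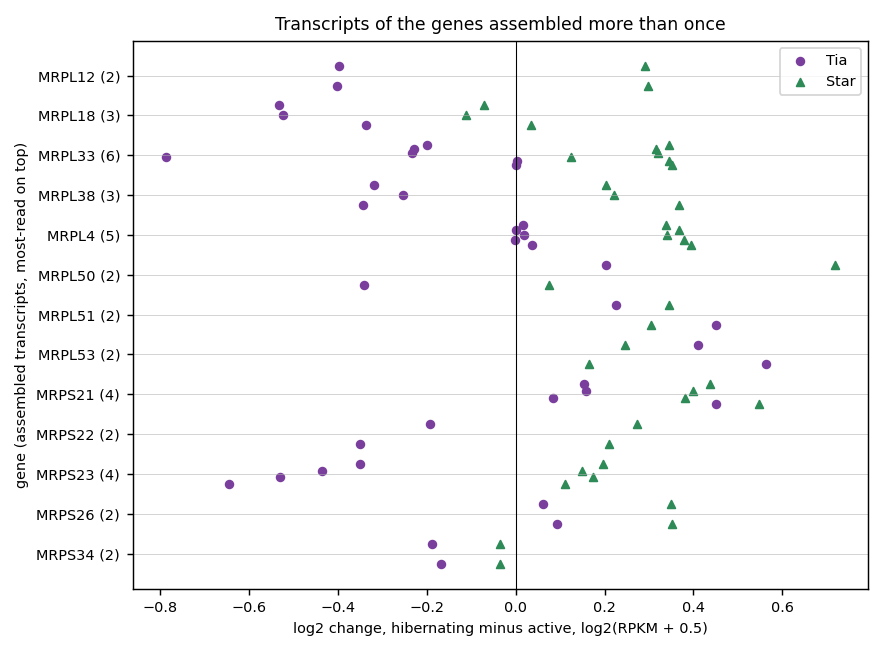
Log2 change (hibernating over active) of every transcript of the 13 member genes with more than 1 transcript, in Tia and in Star. The transcripts of most genes lie close together within a bear, whereas those of MRPL33 spread in Tia and those of MRPL50 in both bears.

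For 13 of the 26 genes the table held more than 1 transcript. Transcripts assembled for a gene can share sequence and reads, so they do not repeat the measurement. In 9 of the 13 genes all transcripts had the same combination of directions in the bears, and MRPL4, MRPL18, MRPL33 and MRPL50 were the exceptions. The second MRPL50 transcript, of 1085 bases, was at 7.93 RPKM in active and 6.16 RPKM in hibernating Tia, and at 6.51 and 6.88 RPKM in Star. It was less abundant than the transcript of 1158 bases described above and did not share its direction in Tia, with a log2 change of -0.34 against 0.20. The 6 transcripts of MRPL33 ran from -0.79 to 0.00 in Tia and from 0.12 to 0.35 in Star.

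Some transcripts had a larger mean rise than the most-read one of their gene, among them 1 shorter transcript each of MRPL51 and MRPS21. The MRPL51 transcript of 671 bases was at 61.9 RPKM in active and 84.9 RPKM in hibernating Tia, and at 67.7 and 83.7 RPKM in Star. Its hibernating values were well above the active ones, with a mean log2 change of 0.38 (limma SE 0.20, adjusted p = 0.639). The MRPS21 transcript of 472 bases was at 1.88 RPKM in active and 2.74 RPKM in hibernating Tia, and at 1.33 and 2.17 RPKM in Star. It had the lowest unadjusted limma p of all 52 transcripts, 0.0964 (adjusted p = 0.620), at levels near the lower limit of the table. Larger falls also occurred outside the most-read transcripts. The mean log2 change was -0.33 for an MRPL33 transcript of 1024 bases, against 0.07 for its most-read one. For an MRPS23 transcript of 826 bases it was -0.27, against -0.08, and for an MRPL18 transcript of 1105 bases -0.32, against -0.30.

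In the lists of other components of mitochondrial translation and of mitochondrial transcription, no gene passed the score or limma by its most-read transcript. Of 7 listed mitoribosomal proteins with other symbols, 4 were measured. DAP3, a GTP-binding protein of the small subunit, was at 3.11 and 3.60 RPKM in active and 3.93 and 4.21 RPKM in hibernating Tia and Star. ICT1, a peptidyl-tRNA hydrolase built into the large subunit, was at 22.5 and 19.4 RPKM in active and 16.0 and 20.9 RPKM in hibernating Tia and Star. DAP3, GADD45GIP1 and MRP63 were higher in hibernation in both bears, and ICT1 was lower in Tia and higher in Star.

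Of 15 listed translation factors 10 were measured, and 3 were higher, 3 lower and 4 opposite in the bears. GFM1, the elongation factor that moves the ribosome along the mRNA, was at 36.4 RPKM in active and 13.2 RPKM in hibernating Tia, and at 22.3 and 21.2 RPKM in Star. The difference was almost wholly in Tia, and its score was 0.798. TUFM, which brings aminoacyl-tRNA to the ribosome, was at 97.3 and 114.6 RPKM in active and 103.7 and 131.2 RPKM in hibernating Tia and Star. LRPPRC, which stabilises mitochondrial mRNAs, was at 28.5 and 23.9 RPKM in active and 23.2 and 24.96 RPKM in hibernating Tia and Star. TUFM was thus higher in hibernation in both bears, and LRPPRC was lower in Tia and higher in Star.

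Of 23 listed assembly factors 10 were measured, and the largest mean difference was that of GTPBP10, a GTPase of large-subunit assembly. GTPBP10 was at 7.60 and 5.16 RPKM in active and 4.47 and 3.97 RPKM in hibernating Tia and Star, with both hibernating values below both active ones (score 0.629). Of 4 listed mitochondrial transcription genes 3 were measured. POLRMT, the mitochondrial RNA polymerase, was at 5.12 and 6.59 RPKM in active and 6.70 and 8.44 RPKM in hibernating Tia and Star, with both hibernating values above both active ones. TFAM, which packages mitochondrial DNA, was at 5.16 and 4.68 RPKM in active and 5.88 and 4.23 RPKM in hibernating Tia and Star.

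**Figure D4:**
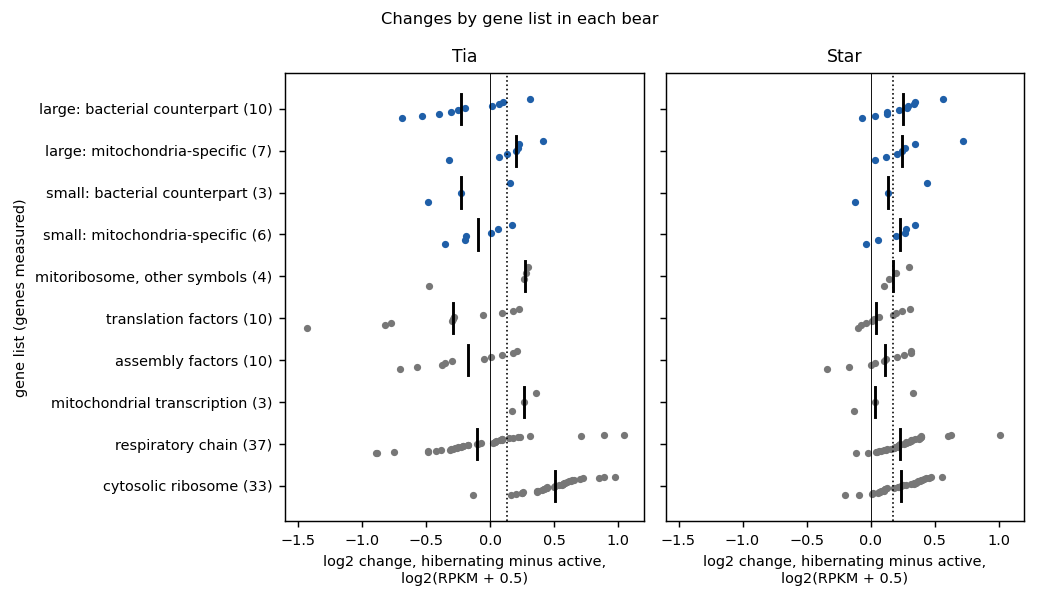
Log2 change (hibernating over active) in Tia and in Star for the mitochondrial ribosomal proteins and for the lists beside them, 1 point per gene, with the median of each row. The mitochondrial ribosomal proteins are drawn in separate rows by subunit and origin. The medians in Tia and Star are 0.51 and 0.24 for cytosolic ribosomal proteins and -0.10 and 0.23 for respiratory chain subunits. Over all mitochondrial ribosomal proteins together, which have no row of their own, they are 0.01 and 0.23.

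The ribosomal proteins of the cytosol had higher levels in hibernation in both bears for nearly all genes. Of 33 measured genes, 31 were higher in both and 1 was lower in both, beside 48.7% and 16.1% of all named genes. The median log2 changes were 0.51 in Tia and 0.24 in Star. The summed level of these genes differed 1.47-fold in Tia, against 0.968-fold for the mitochondrial ribosomal proteins, and 1.18-fold in Star, against 1.17-fold. Respiratory chain and ATP synthase subunits, the complexes that the mitochondrial ribosome serves, had medians of -0.10 in Tia and 0.23 in Star. Of these 37 genes 16 were higher and 2 lower in both bears, and all 19 others were lower in Tia and higher in Star. In each of these lists, 1 gene reached a score of 0.8, beside 194 of all 4873 named genes. These medians are given side by side, and the differences between the lists were not tested.

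Markers of fibre type and of other cells differed between the libraries in the same biopsies, and not in 1 direction. Of 7 slow fibre markers 3 were measured. MYH7, the slow fibre myosin, was at 3004 and 1839 RPKM in active and 2872 and 1295 RPKM in hibernating Tia and Star. ATP2A2, the calcium pump of slow fibres, was at 112 and 56.9 RPKM in active and 142 and 67.9 RPKM in hibernating Tia and Star, and MYL3 was at 1968 and 922 RPKM in active and 2679 and 893 RPKM in hibernating Tia and Star. MYH7 was thus lower and ATP2A2 higher in hibernation in both bears, while MYL3 was higher in Tia and lower in Star. Of 8 fast fibre markers 4 were measured. MYH1, a fast fibre myosin, was at 4823 and 7801 RPKM in active and 2054 and 7625 RPKM in hibernating Tia and Star, so that hibernating Tia stood apart. MYH2, a further fast fibre myosin, was at 2755 and 3493 RPKM in active and 3841 and 3863 RPKM in hibernating Tia and Star, with both hibernating values on top. ATP2A1 and TNNC2 were lower in hibernation in both bears, at log2 changes of -0.27 and -0.12 for ATP2A1 and of -0.63 and -0.27 for TNNC2 in Tia and Star.

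Of 6 connective tissue markers 3 were measured. The collagen gene COL1A1 was at 193 RPKM in active Tia and between 6.79 and 11.0 RPKM in the other 3 libraries (score 0.990, limma adjusted p = 0.708). COL3A1 was at 116 and 136 RPKM in active and 254 and 210 RPKM in hibernating Tia and Star (score 0.862, limma adjusted p = 0.577). COL1A2 was at 2.59 and 3.15 RPKM in active and 3.995 and 3.59 RPKM in hibernating Tia and Star. The last 2 collagens had both hibernating values above both active ones, whereas COL1A1 stood apart in 1 active library, on which its score rests. CD68, a macrophage marker and the 1 measured of 6 blood and immune markers, was at 3.94 and 3.28 RPKM in active and 6.41 and 7.12 RPKM in hibernating Tia and Star, without overlap. PECAM1, the 1 measured of 5 endothelial markers, had overlapping states. The part of these markers in the values of the mitochondrial ribosomal proteins was not tested.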

How the data were processed

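The authors deposited 1 table of RPKM values for 4 single-end libraries. Per the study's methods, reads were aligned with SOAP2, with at most 2 mismatches, to transcripts assembled de novo and named by similarity to human proteins. Handling of reads that match several transcripts is not given in the sources used here. The paired-end and pooled libraries, 3 of 5 samples, are not analysed here. Bears were taken from the column names.

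From the RPKM values, log2(RPKM + 0.5) was tested with limma 3.58.1 in R 4.3.3, with a prior variance that follows the mean level and Benjamini-Hochberg adjusted p-values over all 26614 transcripts. Log2 changes are therefore on that scale and understate changes of low transcripts. Values given as folds are ratios of RPKM without the 0.5 added. A score was written from the description of NOISeq, which the authors used at a threshold of 0.8: the share of 53228 within-state differences between bears that a transcript matches or passes by its log2 ratio and its absolute difference at once. It is not a p-value, and the package itself was not run. Both were run on simulated data with changes far larger than those of the member genes and no difference between the bears. These runs therefore do not show how either performs at changes of the size seen in the members. Aligned reads were recovered from the steps of low RPKM values of transcripts up to 600 bases, of which 94.0% to 96.2% were whole multiples within 0.1 read, and the reads of a member follow from its RPKM and length. A gene was read from its most-read transcript, and sums and counts of genes use it. The limma p-values set each change against the spread between the 2 bears within a state. That spread is moderated by the prior variance drawn from all transcripts.

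Active and hibernating libraries of 1 name come from the same bear, and the change given for each bear uses this pairing. The limma fit had no term for the bear, so its SE and p-values are unpaired unless the block is named. The bear difference in hibernation and that in activity correlated across all transcripts (Pearson r = 0.358, across transcripts, which are not replicates), and the bear as a block was run as an alternative. Members and lists were chosen with earlier results of these data known. Genes named individually by rule were those past the score, up to 8 rises and 8 falls relative to the median of all named genes among genes with the same relative direction in both bears (each side held fewer than 8, so all were taken), the 4 with the largest bear difference among those of opposite direction, the 5 highest and the lowest by level, and all of the stalk, central protuberance and polypeptide exit. The rule gave 18 genes. The 8 others were named for completeness after their values were seen. Alternatives were the pseudocount, library scaling, a minimum level, named transcripts only, the choice of transcript, the prior variance, the score threshold, the block and each library or bear left out. No sequence or coordinate of a member was used here.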

Additional observations from a re-analysis of the deposited data

Results flagged for a closer look

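For 4 member genes named by their difference between the bears, the library pair of Tia and that of Star had opposite directions. The log2 change of MRPL2 was -0.69 in Tia and 0.13 in Star. That of MRPL12 was -0.40 in Tia and 0.29 in Star. MRPL33 had -0.20 in Tia and 0.35 in Star, and MRPS23 had -0.35 in Tia and 0.20 in Star. Each bear has 1 library per state, so the difference between the bears was not tested for any of them.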

How the results depend on the processing

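The count of members past the score and past limma was 0 under every alternative run for it, including limma with the bear as a replicate block (0 members, lowest member adjusted p = 0.368), where 3628 transcripts of the table and 0 members had an unadjusted p under 0.05 beside 2237 and 0 without the block, and without each library (0 members). With 1 library left out, the lone library of that state is assumed to vary like those of the other state, so these fits say little about stability. Over the limma alternatives the lowest member adjusted p ran from 0.248 to 0.872. Without the hibernating library of Star, 35 transcripts of the table and 0 members passed, and 2 members, both lower, had an unadjusted p under 0.05. Without the hibernating library of Tia 1 member, which was higher, did. Library scaling moved the directions: the median ratio shifted all log2 changes by -0.10 in Tia and -0.19 in Star, and the upper quartile by -0.17 and -0.19. Genes higher in both bears numbered 14 as reported, 5 under the median ratio and 3 under the upper quartile, where 30.4% and 27.9% of all named genes were. Genes lower in both numbered 3 as reported, 8 and 9, where 31.2% and 34.6% of all named genes were. The median log2 change was 0.09 as reported, -0.06 under the median ratio and -0.10 under the upper quartile, and the summed fold in Star was 1.01 under both. The mean change took the other sign in 7 of 26 genes under the median ratio, in 9 under the upper quartile and in 1 with the mean over transcripts. With 1 bear left out, genes higher ranged from 14 to 23, genes lower from 3 to 12 and the median log2 change from 0.01 to 0.23, the larger counts being those without Tia for higher and without Star for lower. The score and limma need both bears, so neither was run without a bear.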
